A study of Homo sapiens
Mus musculus and Homo sapiens and Mus musculus with 7 samples.

Results

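The mitochondrial ribosomal proteins encoded in the nucleus were taken as the human protein-coding genes of GENCODE 29 whose symbol is MRPL or MRPS followed by a number. The rule found 78 genes among 58721 human genes, of which 19940 are protein-coding. Of these, 49 carry a large-subunit symbol (MRPL) and 29 a small-subunit symbol (MRPS). The study profiled translated mRNA of 1 cell type within a mixed culture through RPL22, a protein of the cytosolic large ribosomal subunit, carrying an epitope tag. HEK293, a human embryonic kidney line, expressed RPL22-HA and was grown together with NIH3T3, a mouse fibroblast line, which expressed RPL22-V5. The 7 libraries were the total RNA of this co-culture (the input), a HEK293 monoculture, an NIH3T3 monoculture, 2 immunoprecipitations (IPs) with an HA antibody and 2 with a V5 antibody, sequenced from SMART-seq cDNA. HA IPs target the ribosomes of HEK293, and human RNA in V5 IPs is RNA recovered without a matching tag. The labels name no treatment or clone, and do not say whether the monocultures carried a tag. Of each antibody's IPs, the first came from the same numbered lysate and the second from other lysates. The 2 IPs of a pair may thus not be independent cultures. The p-values measure only the spread between these IPs, taken from a trend over all genes.

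The mitochondrial ribosome makes the few proteins encoded in mitochondrial DNA, all of them membrane subunits of the respiratory chain and ATP synthase. Its rRNAs come from the mitochondrial genome, but every one of its proteins is encoded in the nucleus, translated on cytosolic ribosomes and imported. The mRNAs of these proteins can therefore be caught through tagged RPL22, whereas the transcripts that mitochondrial ribosomes translate are outside the reach of a cytosolic tag. Many mitoribosomal proteins descend from bacterial ribosomal proteins and share their numbers, and others have no bacterial counterpart. The class is expressed in all cells that respire.

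The mRNAs differed widely in base composition. GC content of each gene's transcript, taken as the one with the longest coding sequence, ran from 34.96% to 71.9%, with a median of 49.6%, and the transcripts were 527 to 5621 bases long. The coding sequences were 207 to 1449 bases long, and all 78 began with ATG. The first 90 coding bases of 3 members of low and 3 of high transcript GC content are shown from the GENCODE 29 transcripts, because levels in the total RNA libraries differed along this axis. Capitals mark the start codon.
MRPL50: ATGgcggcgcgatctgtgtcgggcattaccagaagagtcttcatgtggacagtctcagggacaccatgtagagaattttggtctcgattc
MRPS36: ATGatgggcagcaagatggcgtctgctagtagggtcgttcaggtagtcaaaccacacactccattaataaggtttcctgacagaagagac
MRPL47: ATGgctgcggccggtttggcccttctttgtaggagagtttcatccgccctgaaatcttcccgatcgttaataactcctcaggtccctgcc
MRPL55: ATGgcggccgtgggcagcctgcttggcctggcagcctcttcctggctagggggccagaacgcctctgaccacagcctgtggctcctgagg
MRPL4: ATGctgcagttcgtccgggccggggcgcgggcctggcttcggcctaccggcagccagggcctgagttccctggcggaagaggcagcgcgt
MRPL41: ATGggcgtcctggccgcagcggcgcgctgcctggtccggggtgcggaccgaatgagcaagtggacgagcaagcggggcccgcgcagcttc
The first 3 belong to transcripts of 34.96%, 34.99% and 38.03% GC, and the other 3 to transcripts of 64.7%, 64.9% and 71.9% GC. At the third codon position the GC content was 37.3%, 29.1% and 38% in the first 3, against 79.9%, 75.6% and 90.5% in the others. In hg38 the genes lie at chr9:101387633-101398614 (minus strand), chr5:69217760-69230129 (plus), chr3:179588285-179604654 (minus), chr1:228106679-228109312 (minus), chr19:10251901-10260045 (plus) and chr9:137551199-137552555 (plus). The 78 genes were spread over 21 chromosomes.

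Human depth differed between libraries. The input held 280163 human counts and the monoculture 826673. The HA IPs held 729698 and 1213213, the V5 IPs 128915 and 81798. Human genes took 26.9% of all counts in the input, 82.1% and 77.6% with HA and 6.25% and 4.48% with V5. A count of 0 allows up to 3 counts, which is 10.7 CPM (counts per 1000000 human counts) in the input and 23.3 and 36.7 CPM in the V5 IPs. The NIH3T3 monoculture held 3 member counts in all, so mouse RNA was almost never counted on the human copies. Of the HEK293-associated markers, KRT18 and NEFL were detected, NEFM was at 0 in every library and PAX2 and KRT8 were near 0. Human copies of 10 fibroblast markers had 0 to 3 counts per library in sum. In 26 members more than 10% of exonic bases lie under exons of another gene, and reads there may be left out or assigned to either gene.

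Summed over all 78 genes, mitoribosomal protein mRNA made up 1.93% of human counts in the input (exact Clopper-Pearson 95% interval 1.88% to 1.99%) and 1.65% in the HEK293 monoculture (1.63% to 1.68%). In the HA IPs it made up 2.26% and 2.34%, a mean of 2.30% ± 0.0557 (SD, n = 2). In the V5 IPs it made up 2.01% and 1.89%, a mean of 1.95% ± 0.0880 (SD, n = 2). Both HA IPs thus lay above every other library, and the input lay between the V5 IPs. These intervals cover counting error only, and with 2 IPs a side an exact permutation test cannot go below a p of 0.333. In a bulk sample, fewer cells of a type and less RNA per cell cannot be told apart.

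Each subunit gave a similar order. Large-subunit genes made up 1.36% of human counts in the input and 1.15% in the monoculture, against 1.53% and 1.67% with HA and 1.33% and 1.37% with V5. Small-subunit genes made up 0.575%, 0.504%, 0.727% and 0.666%, and 0.680% and 0.516% in the same libraries. The HA IPs exceeded the input and the monoculture for both subunits, whereas for the small subunit the first V5 IP lay above the second HA IP. The 13 protein-coding genes of mitochondrial DNA, whose products the mitochondrial ribosome makes, went the other way. They made up 2.82% of human counts in the input and 2.99% in the monoculture, but 0.167% and 0.232% with HA and 0.998% and 1.60% with V5.

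**Figure D1:**
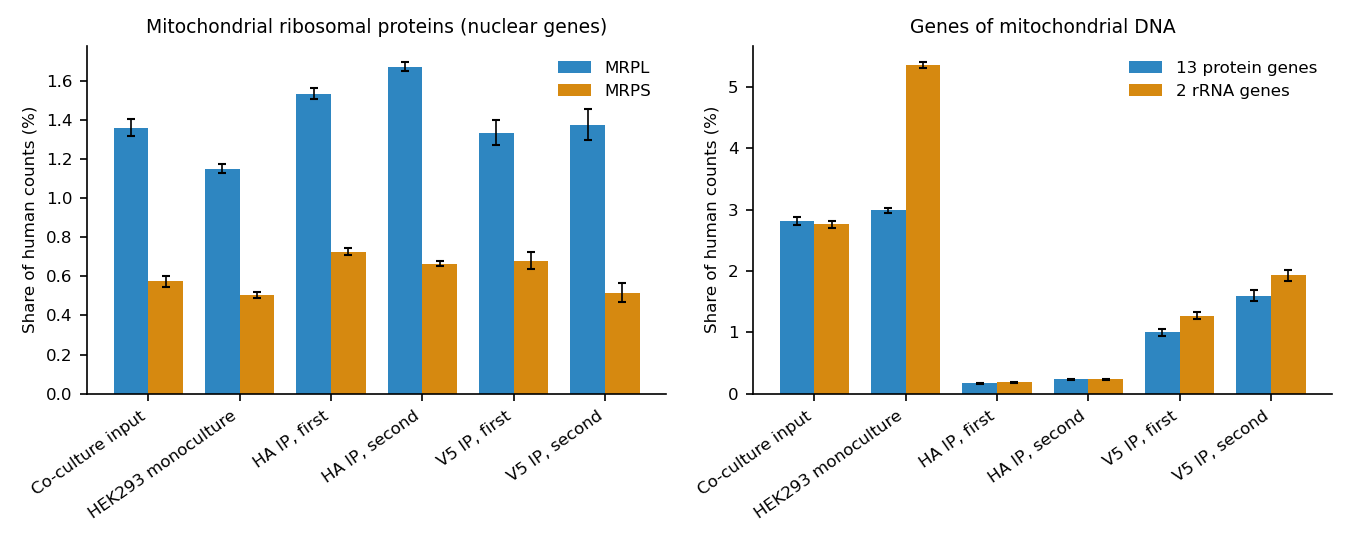
Share of human counts (%) in each of the 6 libraries with human RNA, for the nuclear mitoribosomal protein genes by subunit, set beside the protein and rRNA genes of mitochondrial DNA, with exact 95% intervals as bars. The members lie between 1.65% and 2.34% in every library, whereas the 13 mitochondrially encoded protein genes drop from 2.82% in the input to 0.167% and 0.232% in the HA IPs.

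Levels per length (RPKM, CPM per kilobase of exon) spanned a wide range. In the HEK293 monoculture the highest were MRPL51 at 499.9 RPKM, MRPL14 at 470.5, MRPL55 at 432, MRPS21 at 347, MRPL18 at 300.0 and MRPL24 at 275 RPKM. MRPL14, MRPL18, MRPL24 and MRPS21 are counterparts of bacterial ribosomal proteins, and MRPL51 is a mitochondrial addition to the large subunit. The lowest were MRPL53 at 0, MRPL38 at 1.32 and MRPL23 at 2.03 RPKM. MRPL53 and MRPL38 have 45.2% and 41.1% of their exonic bases under other genes, so their levels are uncertain, and MRPL53 and MRPL23 had too few counts to be tested. The order of the members was shared between libraries. Spearman's rho of RPKM over the 78 genes was 0.961 between the HA IPs, 0.836 between the V5 IPs, 0.894 and 0.927 between the HA IPs and the input, and 0.919 and 0.917 between the HA IPs and the monoculture. These are descriptions across genes, which share the transcript lengths used.

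Some of the abundant genes shifted between libraries. MRPL55 had 1581 CPM in the input and 814 in the monoculture, with HA IPs at 1453 and 2163 CPM and V5 IPs at 985 and 1528 CPM. The monoculture was its lowest library, and the second V5 IP lay above the first HA IP. MRPL51 had 539 CPM in the input and 775 in the monoculture, with HA IPs at 825 and 1095 CPM and V5 IPs at 799 and 1125 CPM. Its input was the lowest of the 6 libraries, and its HA and V5 pairs overlapped. Against the monoculture, MRPL55 differed by 1.196 ± 0.55 and MRPL51 by 0.34 ± 0.56 (log2 ± SE in edgeR), and neither passed the test.

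**Figure D2:**
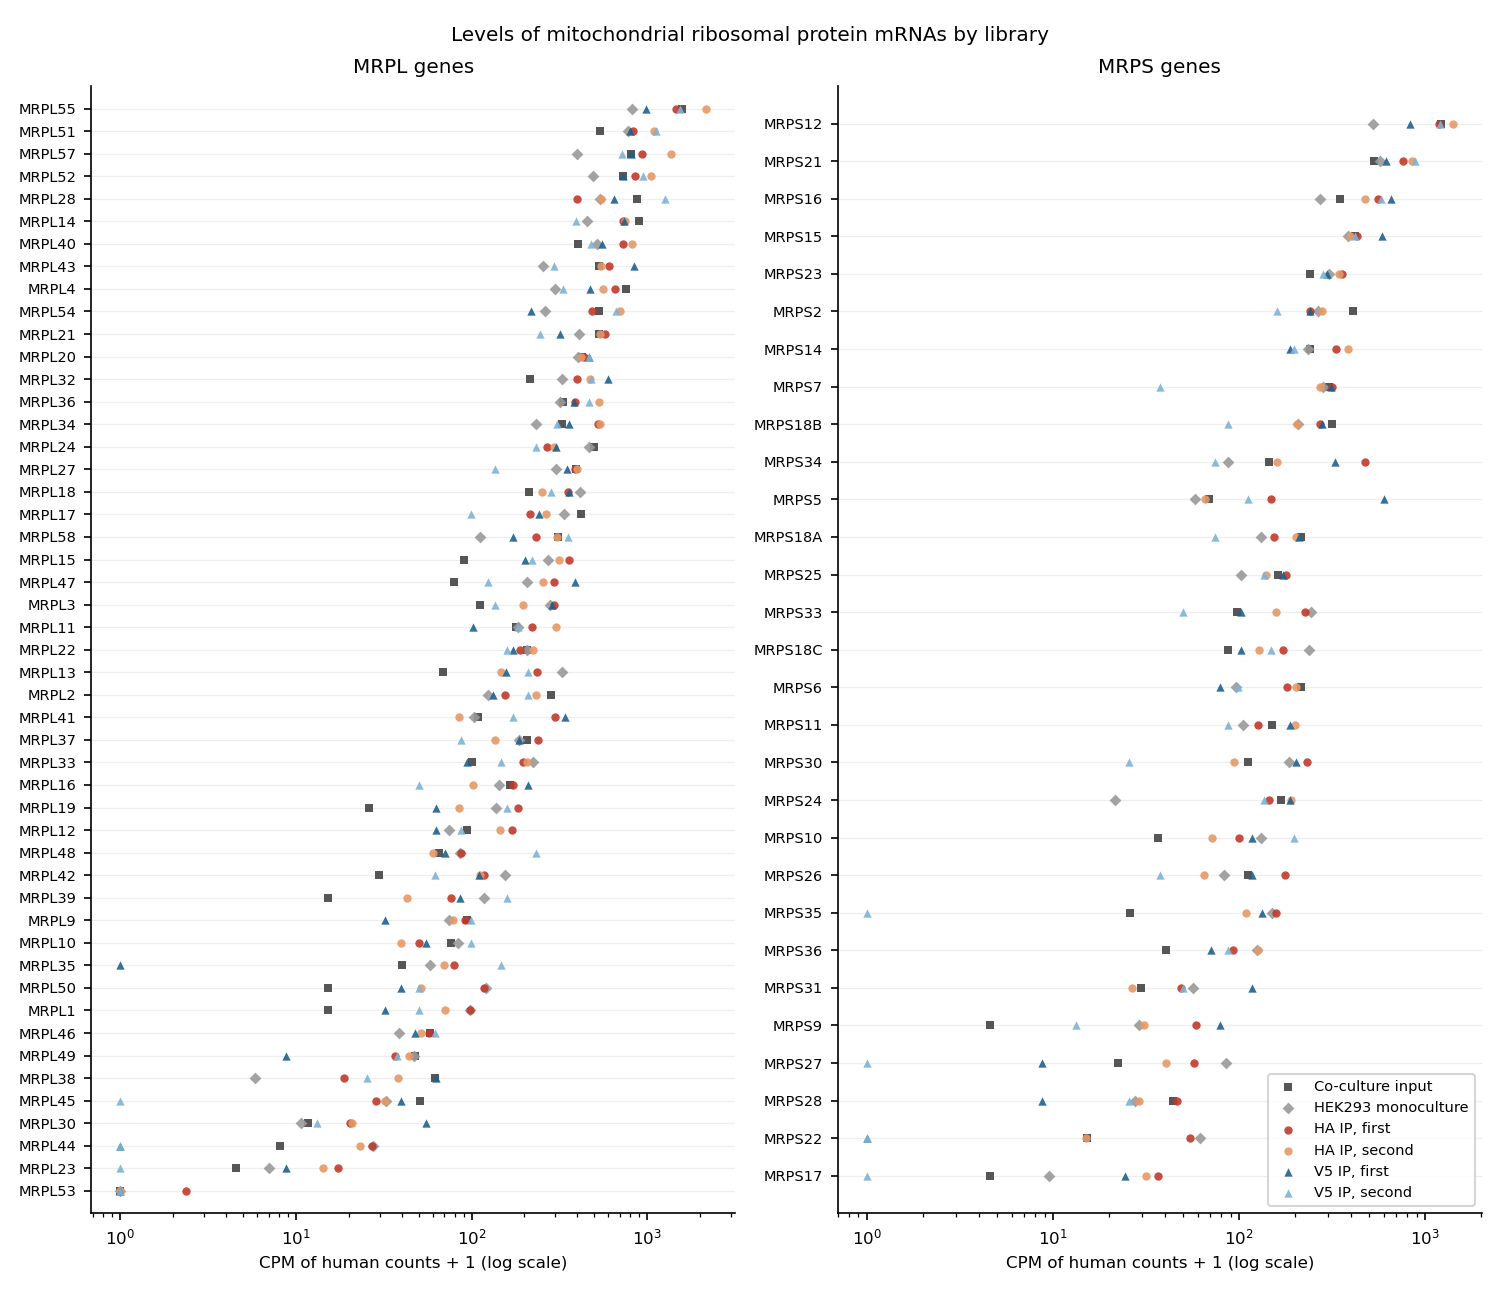
Level of every member (CPM of human counts plus 1, log axis) in the 6 libraries with human RNA, 1 row per gene, with points marking single libraries. The members with the highest levels stay high in all libraries, and the widest scatter is in the V5 IPs, whose median member had 24 and 11 counts.

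The comparison of HA IPs with the input asks which human mRNAs were recovered more or less with tagged ribosomes than in the total RNA of the co-culture. The labels do not tie the second HA IP to the culture of the input. Of 76 members tested in edgeR's quasi-likelihood fit, 0 were higher (all genes tested: 0.192%) and 0 lower (0.432%) at an adjusted p under 0.05. DESeq2 called 0 as well. At an unadjusted p under 0.05, 4 members were higher (5.26% of members, against 5.89% of all genes) and 0 lower (against 2.96%), shares near or under the background. The 4 were MRPS35, MRPL19, MRPL15 (1.73 ± 0.76) and MRPL47 (1.61 ± 0.78 on the log2 scale, ± SE). The number was 8 with totals, 12 with only the compared groups, and 0 and 1 without the first and the second HA IP. The median member was 0.30 on the log2 scale and the median of all 6244 genes 0.38. Scaling moved these together: with DESeq2's size factors they were 0.09 and 0.17, and with totals 0.50 and 0.57, so the members stayed 0.07 to 0.09 below the median gene. Other alternatives moved this gap. Without the second HA IP the medians of members and all genes were -0.05 and 0.20, and without the first 0.13 and 0.31. With at least 50 counts in 2 libraries they were 0.14 and 0.11, so the order reversed.

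Behind that median the members spread in both directions, with the low-GC genes at the upper end. MRPL1, the counterpart of the bacterial protein of the same number at the ribosome's L1 stalk, had 14.3 CPM in the input, 97.3 and 69.2 CPM with HA and 31.03 and 48.9 CPM with V5. Its log2 difference between HA and input was 2.32 ± 1.24. MRPL50, a large-subunit protein without a bacterial counterpart, had 14.3 CPM in the input and 116 and 50.3 CPM in the HA IPs, a log2 difference of 2.28 ± 1.22. For both genes the input was below every IP, and it rested on 4 counts. MRPS35, a mitochondria-specific protein of the small subunit, had 24.99 CPM in the input, 158 and 107 CPM with HA and 132 and 0 CPM with V5. MRPL19, a bacterial counterpart, had 24.99 CPM in the input, 182 and 84.1 CPM with HA and 62.1 and 159 CPM with V5. Their log2 differences between HA and input were 2.19 ± 1.03 and 2.16 ± 1.02. Both HA IPs lay above the input for either gene, but the second V5 IP had 0 counts of MRPS35 and 159 CPM of MRPL19. MRPL42 (1.81 ± 1.01) and MRPL39 (1.79 ± 1.18) completed the 6 largest. Transcript GC content of these 6 ran from 34.96% to 42.1%.

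At the other end stood genes with transcripts of 47.7% to 61.4% GC, a range that reaches below the members' median of 49.6%. MRPL28, the counterpart of a bacterial large-subunit protein, had 874 CPM in the input, 399 and 546 CPM with HA and 644 and 1259 CPM with V5. Its log2 difference was -1.03 ± 0.55, with both HA IPs below the input and the second V5 IP above it. MRPL24 had 499.7 CPM in the input and 269 and 293 CPM in the HA IPs, a difference of -0.99 ± 0.61. Its V5 IPs, at 303 and 232 CPM, were low too. MRPL10 and MRPL17, both bacterial counterparts, differed by -0.96 ± 0.98 and -0.96 ± 0.64, MRPS2 by -0.82 ± 0.65 and MRPL2, which lies at the catalytic core of the large subunit, by -0.68 ± 0.701. Adjusted p-values of these 12 genes were between 0.506 and 0.862 in edgeR.

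The comparison of HA IPs with the HEK293 monoculture sets the same IPs against a total RNA library with deeper human counts. In this contrast 0 members were higher (all genes: 0.048%) and 0 lower (0.32%) in edgeR, while DESeq2 called 1, MRPL57, as higher. Of all 6244 genes tested, DESeq2 called 39, both directions together. At an unadjusted p under 0.05, 5 members were higher (6.58%, against 2.21% of all genes) and 0 lower (against 1.62%). The 5 were MRPS24, MRPS34, MRPL57, MRPS12 and MRPL55, and the count was 11 with totals and 3 with the GC trend removed. The median member was 0.35 and the median gene 0.01, and the gap of 0.34 stayed between 0.31 and 0.34 with other scalings and was 0.21 with the GC trend removed. Without the first HA IP, MRPL55 and MRPL57 were called as higher. The gap was 0.13 without the second HA IP and 0.09 among the 51 members tested with at most 10% overlap. Over all members, the monoculture was below both HA IPs for 43, above both for 18 and between them for 17. The same count was not made over all genes, so it is not read as a trait of the members.

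MRPS24, a small-subunit protein with a bacterial counterpart, showed the largest gap, with 20.6 CPM in the monoculture against 144 and 188 CPM in the HA IPs, 168 CPM in the input and 186 and 134 CPM in the V5 IPs. The monoculture stood apart and the other 5 libraries lay close together. The log2 difference between HA and monoculture was 3.03 ± 0.92 (adjusted p = 0.183 in edgeR). It passed the test when either V5 IP or both V5 IPs and the input were left out of the fit. Of its exonic bases, 23.2% lie under a read-through gene that joins it to URGCP, so that the assignment of reads is uncertain.

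MRPL57, a large-subunit protein without a bacterial counterpart, had 397 CPM in the monoculture, 939 and 1368 CPM with HA, 807 and 721 CPM with V5 and 810.2 CPM in the input. Its log2 difference between HA and monoculture was 1.58 ± 0.595, with an adjusted p of 0.636 in edgeR, and the monoculture was the lowest library. MRPS34 had 85.9 CPM in the monoculture and 471 and 158 CPM in the HA IPs, a difference of 1.78 ± 0.76, with the first HA IP far above the second. MRPS12, the counterpart of the bacterial decoding-centre protein, had 520.2 CPM in the monoculture, 1181 and 1403 CPM in the HA IPs and 1221 CPM in the input. It differed from the monoculture by 1.34 ± 0.57 and from the input by -0.08 ± 0.54. MRPL58, a peptidyl-tRNA hydrolase built into the large subunit that can release stalled chains, differed from the monoculture by 1.31 ± 0.71, and MRPL54 by 1.23 ± 0.63. For all 6 the monoculture was below both HA IPs.

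The smallest differences from the monoculture were those of MRPL39 (-1.03 ± 0.88), MRPL10 (-0.91 ± 0.94), MRPL13 (-0.82 ± 0.69), MRPL24 (-0.71 ± 0.61), MRPS18C (-0.69 ± 0.73) and MRPS10 (-0.65 ± 0.82). MRPL39 had 116 CPM in the monoculture, 75.4 and 42.04 CPM with HA, 85.3 and 159 CPM with V5 and 14.3 CPM in the input. It lay among the largest against the input and among the smallest against the monoculture, with the total RNA libraries themselves far apart. MRPL10, at the base of the stalk that binds translation factors, and MRPL24 were low in the HA IPs against both total RNA libraries. MRPL10 had 82.3 CPM in the monoculture, 74.96 CPM in the input and 49.3 and 38.7 CPM in the HA IPs, with HA below both.

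**Figure D3:**
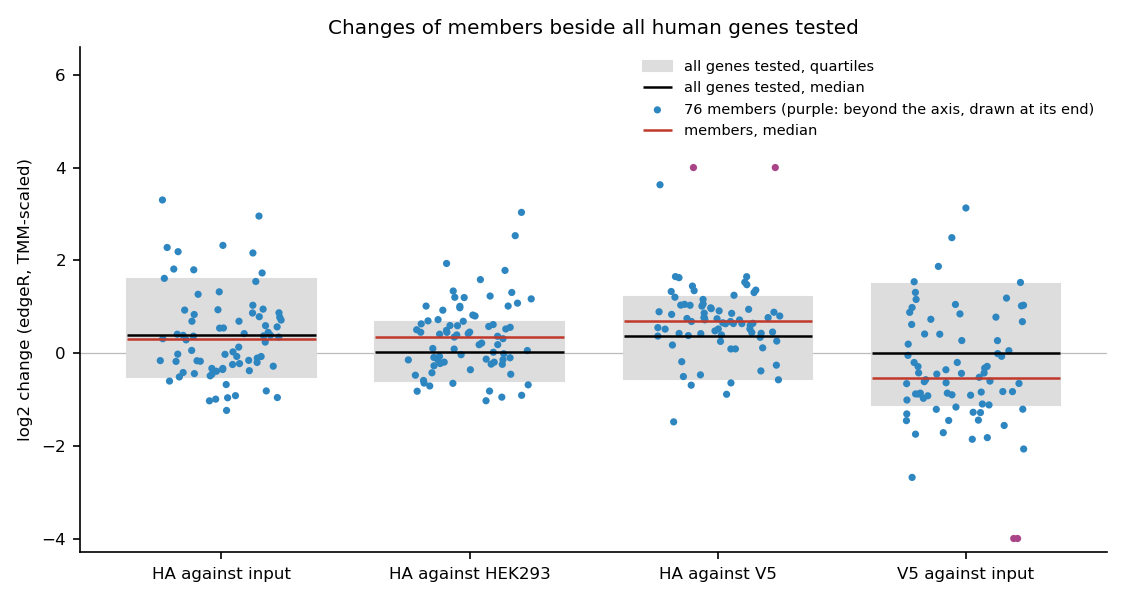
Fitted log2 change (edgeR, TMM-scaled) of the members tested in each of 4 contrasts, each point 1 gene, beside the quartiles and median of all 6244 human genes tested (purple points lie beyond the axis and are drawn at its end). Member medians are 0.30, 0.35, 0.70 and -0.55, against all-gene medians of 0.38, 0.01, 0.37 and 0.00, and no member passes the test in any of the 4.

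HA against V5 compares human RNA recovered with the matching tag with human RNA recovered with the other one, and has 2 libraries on each side. No member was called, with 0 higher (all genes: 0.048%) and 0 lower (0.32%) in edgeR and 0 in DESeq2. At an unadjusted p under 0.05, 12 members were higher (15.8%, against 8.54% of all genes) and 1 lower (1.32%, against 2.63%). These 13 became 5 with DESeq2's size factors or totals, 4 with the GC trend removed and 3 in DESeq2 or with only the compared groups. The number was 2 with at least 50 counts in 2 libraries, but 15 with no filter on low counts or with a replicate block. The median member was 0.70 and the median gene 0.37. With DESeq2's size factors they were 0.36 and 0.03, and with totals 0.32 and 0.00, so the scaling moved both. With at least 50 counts in 2 libraries they were 0.14 and 0.01. The gap between members and all genes was not stable: the medians were 0.94 and 0.93 when the first V5 IP was left out, 0.56 and 0.66 when the second was, 0.74 and 0.16 without the first HA IP, and 0.77 and 0.84 with no filter on low counts. In CPM, both HA IPs lay above both V5 IPs for 24 of the 76 members (31.6%, against 25.7% of all genes) and below both for 8 (10.5%, against 15%), while 44 overlapped. Calls depended on single libraries. MRPL55 was called without the first HA IP, MRPS35 without the first V5 IP, and MRPL35 and MRPS5 without the second. MRPS35 had 0 counts in the second V5 IP and MRPL35 in the first. MRPL44 and MRPS22 had 0 counts in both V5 IPs. Against 3 counts over the pair, they were at least 1.66-fold and 2.02-fold higher in HA, and with these bounds the members' median was 0.70.

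MRPS33, a mitochondria-specific small-subunit protein, had 226 and 157 CPM with HA and 101 and 48.9 CPM with V5. It differed by 1.65 ± 0.703 on the log2 scale, the groups did not overlap, and the adjusted p was 0.347 in edgeR. MRPS6, a bacterial counterpart, had 179.5 and 201 CPM in HA and 77.6 and 97.8 CPM in V5, a difference of 1.53 ± 0.697 with no overlap. MRPL12, the counterpart of the bacterial stalk protein that recruits translation factors, had 169 and 144 CPM in HA and 62.1 and 85.6 CPM in V5, a difference of 1.47 ± 0.76. Its exons overlap another gene over 68.2% of their bases, so this value is uncertain. MRPS5, a bacterial counterpart near the mRNA entry side of the small subunit, was the lowest, at -1.48 ± 0.64. Its V5 values of 597 and 110.0 CPM differed from each other more than the HA values of 147 and 64.3 CPM did. Without the first V5 IP its difference was 0.25. MRPS31 (-0.89 ± 0.93) and MRPL39 (-0.69 ± 0.81) also lay below 0.

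V5 against input gives the background of the IP for the same genes. No member was called, with 0 higher (all genes: 0.256%) and 0 lower (0.496%) in edgeR and 0 in DESeq2. At an unadjusted p under 0.05, 2 members were higher (2.63%, against 5.11% of all genes) and 7 lower (9.21%, against 7.82%). The median member was -0.55 and the median gene 0.00, and with scaling by totals they were 0.01 and 0.53, a gap of -0.52. Leaving out the first V5 IP gave a gap of -0.22, leaving out the second -0.33, and removing the GC trend -0.22. With MRPL44 and MRPS22, at 0 in both V5 IPs, set to their bounds, the members' median was -0.45. Among genes with at least 50 counts in 2 libraries it was -0.07, and 0.03 for all such genes. Without the first V5 IP, 1 member was called, as lower: MRPS7, of which the V5 IPs held 310.3 and 36.7 CPM. MRPL39 (2.49 ± 1.23), MRPS5 (1.87 ± 0.87) and MRPS10 (1.54 ± 1.01) were the highest. MRPS6 (-1.86 ± 0.81), MRPL17 (-1.82 ± 0.67) and MRPS2 (-1.56 ± 0.67) were the lowest. MRPL17 had 421 CPM in the input, 240.5 and 97.8 CPM in V5 and 215 and 265 CPM in HA. Every IP was below the input for this gene. MRPS6 had 214 CPM in the input, 77.6 and 97.8 CPM in V5 and 179.5 and 201 CPM in HA, so that all IPs were below the input and V5 was the lowest.

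The co-culture input and the HEK293 monoculture are both total RNA with human reads, 1 library each, and their difference has no replicate check. Of 69 members with at least 50 CPM in either library, 10 were over 2-fold higher in the input (18% of all such genes were) and 17 over 2-fold lower (35.7%). The lowest ratios of input to monoculture in CPM were those of MRPL50 at 0.119 (95% interval 0.0319 to 0.315), MRPL39 at 0.123 (95% interval 0.0328 to 0.325) and MRPL1 at 0.148 (95% interval 0.0392 to 0.393). The highest were those of MRPL38 at 12.5 (95% interval 4.09 to 51.2), MRPS24 at 8.16 (95% interval 4.598 to 15.2) and MRPL58 at 2.79 (95% interval 2.06 to 3.78). The first 3 have transcripts of 34.96%, 42.1% and 39.1% GC and the last 3 of 64.6%, 58.3% and 51.5% GC. The intervals compare these libraries, not the cultures.

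The members were next ordered along the axis of transcript GC content. Not all of these extremes lay at its ends, as MRPL58, at 51.5% GC, fell in the middle group. The members were divided by rank into 3 groups of 26 genes, with GC content of 34.96% to 46.4%, 46.5% to 52.9% and 53.0% to 71.9%. The low-GC group, which holds MRPL50, MRPS36 and MRPL47 among the sequences above, made up 0.194% of human counts in the input and 0.408% in the monoculture. With HA it made up 0.421% and 0.351%, and with V5 0.354% and 0.318%. The input was the lowest library, and for 21 of the 26 genes it was below both HA IPs. The high-GC group, with MRPL55, MRPL4 and MRPL41, made up 1.10% in the input and 0.684% in the monoculture. With HA it made up 1.07% and 1.14%, and with V5 0.951% and 0.881%. Here the monoculture was the library that stood apart, below both HA IPs for 18 of the 26 genes. Such counts were not made over all genes or other genes of like GC content, so they describe these members only.

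**Figure D4:**
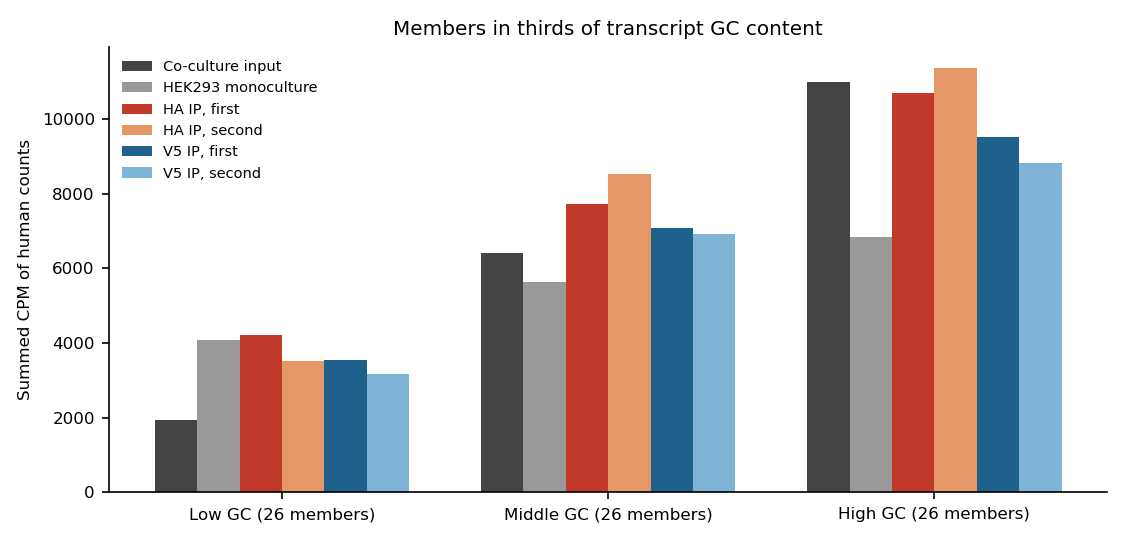
Summed CPM of human counts of the members in 3 groups by transcript GC content, 1 bar per library. The input is the lowest library for the low-GC group (0.194% of human counts) and the monoculture the lowest for the high-GC group (0.684%).

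The fitted changes followed the same axis. Across the 76 members tested, Spearman's rho between transcript GC content and log2 change was -0.578 for HA against input, 0.539 for HA against the monoculture, -0.0208 for HA against V5 and -0.463 for V5 against input. Over 2255 human genes with a mean of at least 50 CPM it was -0.670, 0.331, 0.0433 and -0.586, so a gradient of the same sign ran through the human genes at large in the first, second and last contrast. These are descriptions across genes, which share library, depth and sequence composition. In HA against input the median log2 change was 0.89 in the low-GC group, 0.24 in the middle and -0.18 in the high-GC group. With the GC trend of all genes removed, which flattens such a gradient by construction, the medians were 0.09, -0.09 and 0.05, against 0.15 over all genes. In HA against the monoculture the medians were -0.17, 0.50 and 0.69. With the trend removed they became -0.04, 0.40 and 0.20, against -0.03 over all genes. HA against V5 had medians of 0.65, 0.63 and 0.75 and so no such gradient.

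**Figure D5:**
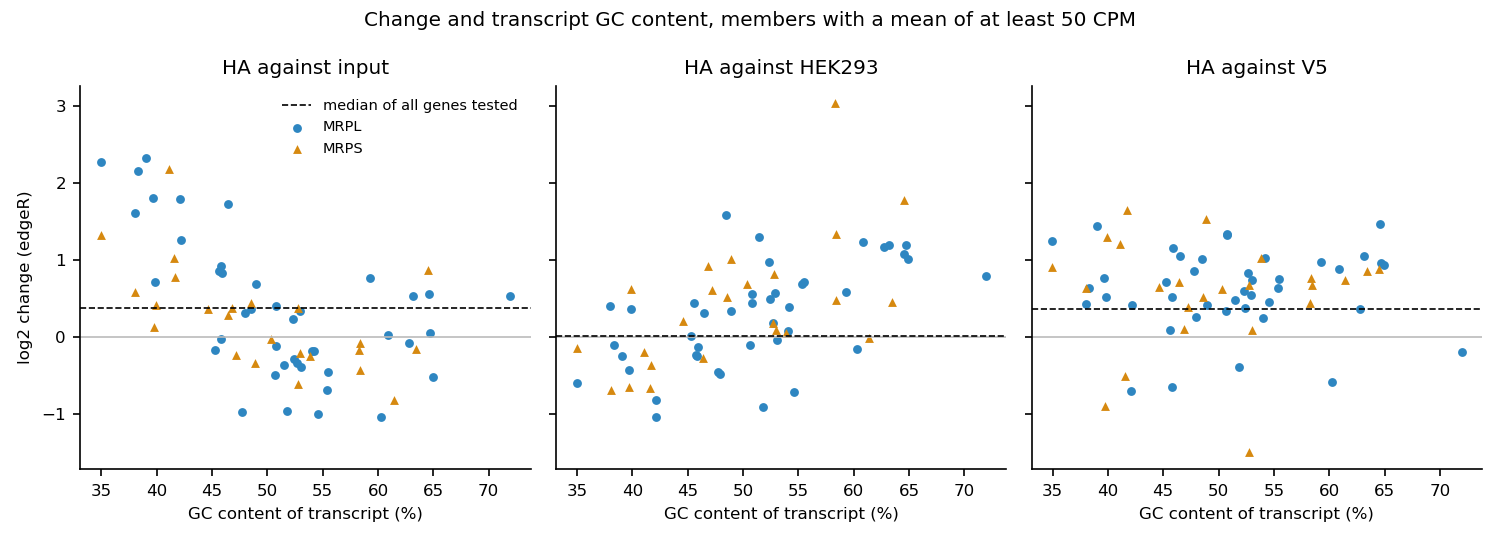
Fitted log2 change against GC content of the transcript (%) for the members with a mean of at least 50 CPM, with 1 point per gene. There is 1 panel each for HA against input, HA against the monoculture and HA against V5, and V5 against input is not drawn. A dashed line marks the median of all genes tested. HA against input is lower at higher GC content and HA against the monoculture higher (Spearman's rho over all 76 members -0.578 and 0.539), while HA against V5 is flat (-0.0208).

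The GC trend was fitted on these same libraries, members included. Taking it out therefore moved genes at the ends of the GC range by construction. Between HA and input, MRPL1 went from 2.32 to 1.03, MRPL50 from 2.28 to 0.61 and MRPL39 from 1.79 to 0.805. MRPL28 went from -1.03 to -0.52. MRPL10 and MRPL17, of middle GC content, went from -0.96 to -0.92 and from -0.96 to -1.35. Against the monoculture, MRPS24 stayed at 2.67, MRPL57 at 1.61 and MRPL10 at -1.01. MRPL24 was -0.73 against the input and -0.92 against the monoculture. MRPL10 and MRPL24 were thus lower in the HA IPs against both references, with and without the trend, though neither difference passed the test.

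By subunit the medians lay close together. For HA against input the median was 0.24 for large-subunit and 0.36 for small-subunit genes, and for HA against the monoculture 0.34 and 0.42. For HA against V5 the medians were 0.64 and 0.71, and for V5 against input -0.52 and -0.61. By background knowledge, 46 members have a bacterial counterpart and 29 are specific to mitochondrial ribosomes. The remaining members, MRPL55 among them, were placed in neither class. The medians of the first and second class were 0.31 and 0.32 for HA against input and 0.39 and 0.09 for HA against the monoculture. No member of either class was called, and these differences were not tested.

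MRPS18A, MRPS18B and MRPS18C are human paralogues of 1 bacterial small-subunit protein, of which MRPS18A sits in the large subunit, and their balance varied between libraries. MRPS18C, the low-GC member of the trio (38.04% against 58.4% for MRPS18A and 52.7% for MRPS18B), took 14.0% of the counts of the 3 genes in the input (exact interval 9.15% to 20.1%) and 41.2% in the monoculture (36.7% to 45.8%). It took 28.7% and 23.8% in the HA IPs, between the total RNA libraries. In the V5 IPs it took 17.1% and 48.0%, on 76 and 25 counts. MRPS18B had 314 CPM in the input and 207 in the monoculture, with HA IPs at 270.0 and 204 CPM and V5 IPs at 279 and 85.6 CPM. MRPS18A had 214 CPM in the input, 129 CPM in the monoculture and 152 and 202 CPM in the HA IPs. Exons of other genes cover 47.04% of the bases of MRPS18A and 40.2% of those of MRPS18C, so the shares carry that uncertainty. Log2 differences between HA and input were -0.42 ± 0.73 for MRPS18A, -0.605 ± 0.67 for MRPS18B and 0.59 ± 0.82 for MRPS18C.

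The symbols MRPS30 and MRPS36 do not say where the proteins work. MRPS30 is named for the small subunit but sits in the large one, and MRPS36 is known as a subunit of the alpha-ketoglutarate dehydrogenase complex. MRPS30 had 111 CPM in the input and 185 in the monoculture, with HA IPs at 230.2 and 92.3 CPM and V5 IPs at 202 and 24.5 CPM. Its IPs spread widely within each pair, and HA against input was 0.28 ± 0.800. MRPS36 had 39.3 CPM in the input and 123 in the monoculture, with HA IPs at 91.8 and 125 CPM and V5 IPs at 69.8 and 85.6 CPM. Its input was the lowest library and its HA and V5 pairs did not overlap, with HA against V5 at 0.91 ± 0.79. HA against input was 1.32 ± 0.98, and -0.37 with the GC trend removed.

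The IPs of a pair differed by gene. The test took the spread from a trend over all genes, so a gene's own spread between IPs did not set its SE. Between the HA IPs the log2 ratio of the 76 members had an SD of 0.587, and 8 members differed by more than 2-fold. MRPL41, of 71.9% GC, was 3.52-fold higher in the first HA IP than in the second (296 and 84.1 CPM). MRPS34 and MRPS26 were 2.98-fold and 2.76-fold higher in the first. These genes were picked for naming after their values were seen. Between the V5 IPs the SD was 1.06 and 23 members differed by more than 2-fold. These counts were not made over all genes, so they are not read as a trait of the members. In simulated data of this design, genes drawn from all genes tested were changed between HA and input. Those changed 2-fold were recovered at a rate of 0%, those changed 4-fold at 4.76% and those changed 16-fold at 61.0%. The median SE in this contrast was 0.77 over the members and 1.41 over all genes tested. The rates thus describe genes at large and need not hold for the members. A member that was not called is not shown to be unchanged.

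Genes that work with the members had other medians in part. For HA against V5 the median was 0.62 over mitoribosomal proteins with other symbols, -0.02 over assembly and rRNA factors and 0.198 over mitochondrial translation factors, against 0.70 over the members. For V5 against input these were -0.04, 0.11 and 0.93, against -0.55. For HA against input they were 0.27, 0.31 and 0.54, and for HA against the monoculture 1.06, -0.16 and -0.16. Of 5 mitoribosomal proteins with other symbols, 22 of 26 assembly and rRNA factors with enough counts, and 14 of 17 mitochondrial translation factors with enough counts, 0 were called in any of the 4 contrasts by edgeR or DESeq2. At an unadjusted p under 0.05 stood 0 of the first list in each contrast. For HA against input, HA against the monoculture, HA against V5 and V5 against input, the second list had 1, 1, 3 and 1 of 22. The third list had 3, 0, 2 and 1 of 14 in the same order. Shares over all genes were 8.86%, 3.83%, 11.2% and 12.9%. CHCHD1, NDUFAB1 and SLIRP, also among the 2 most abundant of their lists, differed between HA and input by 0.72 ± 0.67, 0.52 ± 0.54 and 0.71 ± 0.58. AURKAIP1, a small-subunit protein, had 1042 CPM in the input and 446 in the monoculture, with HA IPs at 929 and 927 CPM and V5 IPs at 807 and 770.2 CPM. It was lowest in the monoculture, as MRPL55 was, and HA against the monoculture was 1.06 ± 0.58. TUFM, the mitochondrial elongation factor that brings tRNA to the ribosome, had 1567 CPM in the input and 901 in the monoculture, with HA IPs at 765 and 822 CPM and V5 IPs at 931 and 1333 CPM. HA against input was -1.15 ± 0.52, with both HA IPs below the total RNA libraries and both V5 IPs. MALSU1, an assembly factor of the large subunit, had 553 CPM in the input and 788 and 640.4 CPM in the HA IPs, a difference of 0.18 ± 0.59.

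The nuclear genes of the respiratory chain, whose products are also imported and join the proteins made by mitochondrial ribosomes, had medians of 0.30 for HA against input, 0.15 for HA against the monoculture, 0.87 for HA against V5 and -0.63 for V5 against input. Of the 75 tested, 0 were called in these contrasts by edgeR, with 3, 13, 28 and 5 at an unadjusted p under 0.05 (4.00%, 17.3%, 37.3% and 6.67%, against 8.86%, 3.83%, 11.2% and 12.9% of all genes). DESeq2 called 1 as lower in the first contrast and 5 as higher in the second. Of all 6244 genes tested, DESeq2 called 64, 39, 27 and 45 in the same order of contrasts, both directions together. Proteins of the cytosolic ribosome had medians of -0.16, -0.21, 0.39 and -0.52 over 82 genes tested, with 1 called by edgeR, as lower, in HA against input. DESeq2 called 1 as lower there, 4 as lower in HA against the monoculture, 1 as lower in HA against V5 and 1 as higher in V5 against input. The 13 mitochondrially encoded protein genes fell in both comparisons of HA with total RNA, all 13 with an adjusted p under 0.05 in edgeR and medians of -3.94 and -3.90. DESeq2 called 13 and 9 of them. All 13 also lay below 0 in HA against V5, where 10 passed the test and the median was -2.38, and in V5 against input, where 4 passed and the median was -1.85. In the HA IPs, 0 of 76 members tested and 13 of 13 mitochondrially encoded genes were thus called lower than either total RNA library.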

How the data were processed

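Per the file headers, the authors made counts per gene from exons of a joint annotation of both species with featureCounts 1.5.2, reading pairs and ignoring strand. STAR 2.5.2, Trim Galore, SAMtools, bcl2fastq and the build hg38 come from the submitters' processing notes. No mouse data entered the tests. The human identifiers of the deposited counts matched GENCODE 29.

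Human genes were tested with edgeR 4.0.16 (quasi-likelihood, two-sided, R 4.3.3) on the deposited counts with TMM factors. The HA and V5 pairs, the input and the HEK293 monoculture shared 1 fit with 2 residual degrees of freedom, so the single libraries were assumed to vary like the IPs. filterByExpr (minimum count 10, minimum total 15) kept 6244 genes, and p-values were adjusted by Benjamini-Hochberg over them with a threshold of 0.05. The biological coefficient of variation was 51.2%. The prior degrees of freedom of the fit were infinite, so each gene's spread was taken from the trend over all genes. SEs were derived from the test statistic. CPM is per 1000000 human counts. Single libraries were compared as log2 ratios with a prior count of 2. The fit was tested on simulated data.

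Genes were named where they were called, had the 6 (for V5, 3) largest or smallest changes in a contrast among members with a mean of at least 50 CPM, the 6 highest or 3 lowest RPKM in the monoculture, or the 3 largest or smallest input ratios. MRPS18A, MRPS18B, MRPS18C, MRPS30, MRPS36 and MRPL12 were named always, and any other member named was chosen after its values were seen. The members and lists were chosen with earlier results of these data known. Alternatives were other scalings and filters, DESeq2 1.42.0, removal of a GC trend (loess), a replicate block, only the groups compared, members with little overlap, and leaving out each IP. Leaving out the input was added after seeing the data.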

Additional observations from a re-analysis of the deposited data

How the results depend on the processing

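No member was called in HA against input under any alternative run. In HA against the monoculture 1 member was called when only the compared groups were fitted (MRPS24) and 1 by DESeq2 (MRPL57), and leaving out 1 IP gave 0 to 2. Leaving out 1 IP gave 0 to 2 called in HA against V5 and 0 to 1 in V5 against input. The members' median for HA against input was 0.0911 with DESeq2's size factors, 0.50 with totals, 0.14 with at least 50 counts in 2 libraries, 0.0480 with the GC trend removed, 0.18 with only the compared groups, 0.0921 in DESeq2's Wald test and -0.0492 to 0.33 without 1 IP. For HA against the monoculture it was 0.18 with the count filter, 0.18 with the GC trend removed, 0.10 among members with at most 10% overlap and 0.11 to 0.36 without 1 IP. For HA against V5 it was 0.36 with DESeq2's size factors, 0.32 with totals, 0.14 with the count filter, 0.22 with the GC trend removed, 0.397 with only the compared groups, 0.36 in the Wald test and 0.43 to 0.94 without 1 IP. For V5 against input it was -0.43 with DESeq2's size factors, 0.0112 with totals, -0.0662 with the count filter, -0.0198 with the GC trend removed, -0.21 with only the compared groups, -0.43 in the Wald test, -0.29 with little overlap and -0.58 to -0.44 without 1 IP. Named members changed sign in 19 of 762 values. With the GC trend removed, MRPS18A was 0.0459, MRPS18C -0.81, MRPS30 -0.23 and MRPS36 -0.37 in HA against input, and MRPL12 was 0.22 and MRPS36 -0.79 in V5 against input. Leaving out 1 IP, MRPS30 ran from -0.31 (without the first HA IP) to 0.64 in HA against input, from -0.86 to 0.12 (without the second HA IP) in HA against the monoculture, from -0.0338 (without the second V5 IP) to 3.02 in HA against V5 and from -2.72 to 0.34 (without the second V5 IP) in V5 against input. MRPS36 ran from -0.62 to 0.17 (without the first HA IP) in HA against the monoculture, and MRPS5 from -2.204 to 0.25 (without the first V5 IP) in HA against V5. In V5 against input, MRPS18C was 0.0639 with DESeq2's size factors, 0.51 with totals, 0.33 with the count filter, 0.22 with only the compared groups, 0.22 without the first V5 IP and 0.0661 in the Wald test, and MRPS30 was 0.11 with totals. Their causes were not tested beyond the construction of each alternative. Counts of all genes called ran over the alternatives from 29 to 260 around 39 in HA against input, from 21 to 63 around 23 in HA against the monoculture, from 16 to 117 around 23 in HA against V5 and from 7 to 167 around 47 in V5 against input. Leaving out the input, added after seeing the data, left 0 members called in HA against the monoculture and against V5. The labels give both antibodies a first and a second IP. With this number as a replicate block, 0 members were called in each contrast and the medians were 0.27, 0.33, 0.74 and -0.59. First minus second IP correlated at r = 0.199 between HA and V5 over 2255 genes, and with 2 pairs the numbers do not establish a pairing. By the lysate numbers, the first HA and V5 IPs share a lysate and the second ones do not. The block thus joins second IPs of different lysates, and the main fit treated the first IPs as independent. The V5 IPs had a median of 24 and 11 counts per member, against 149 and 232 in the HA IPs.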
